A study of Mus musculus with 20 samples.

Results

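Glutamate is the main excitatory transmitter of the brain, and 34 genes of its synapses were followed here in the arcuate nucleus (ARC) of mice given corticosterone (Cort). The genes were taken by symbol from the 22048 genes of the deposited tables, and all 34 were found there. They comprised 5 AMPA receptor genes (Gria1 to Gria4 and the auxiliary subunit gene Cacng8), 6 NMDA receptor genes (Grin1, Grin2a to Grin2d and Grin3a), 5 kainate receptor genes (Grik1 to Grik5), 7 metabotropic and delta receptor genes (Grm2, Grm3, Grm4, Grm5, Grm7, Grm8 and Grid1), 4 transporter genes (Slc17a6, Slc17a7, Slc17a8 and Slc1a1) and 7 scaffold and kinase genes (Dlg2, Dlg4, Homer1, Shank1 to Shank3 and Camk2a).

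Male C57BL6/J mice, aged 10 weeks by the labels, drank water containing either Cort at 75 µg/ml in 1% ethanol or the 1% ethanol vehicle (Veh). The study placed acclimatization and a baseline period before treatment, so this age need not be the age at treatment or collection. Treatment lasted 2 days in one set and 4 weeks in the other, and mice of the 4 week set were fasted for 16 h and refed for 24 h before collection while treatment went on. The entire ARC was captured by laser from sections stained with cresyl violet, and its RNA was sequenced in 5 Veh and 5 Cort samples per set. In each set the study left out 2 Veh samples and 1 Cort sample as outliers of the whole transcriptome, so 3 Veh and 4 Cort samples were kept. In each of these left-out samples (C07, C08 and C09 at 2 days, C01, C05 and C06 at 4 weeks), between 11 and 15 of the 34 genes lay outside the range of the kept samples of the same set. The share over all genes was not counted, so these numbers do not show that the samples were unusual for the 34 genes. Values of the left-out samples are given beside those of the kept samples for the genes described sample by sample.

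Vesicular glutamate transporters load transmitter into synaptic vesicles, and Slc17a6 (VGLUT2) is the usual form in the hypothalamus while Slc17a7 (VGLUT1) is typical of cortex and hippocampus. Released glutamate opens AMPA, kainate and NMDA receptor channels on the facing membrane and also acts on G protein-coupled metabotropic receptors. Scaffold proteins of the Dlg, Shank and Homer families hold these receptors in the postsynaptic density, where the kinase CaMKII (Camk2a) is abundant. ARC neurons receive excitatory input, and most AgRP neurons are themselves GABAergic.

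The promoters of the pair of transporter genes that passed the unadjusted threshold at 2 days are shown first. Each window covers 250 bases before to 50 bases after a transcription start annotated by RefSeq in GRCm38.p6. Capitals mark the GC box GGGCGG or its reverse complement CCGCCC, a short motif bound by Sp-family factors and common near gene starts. The Slc17a6 window lies at chr7:51621580-51621879 on the plus strand, and the Slc17a7 window at chr7:45163671-45163970 on the plus strand.
Slc17a6: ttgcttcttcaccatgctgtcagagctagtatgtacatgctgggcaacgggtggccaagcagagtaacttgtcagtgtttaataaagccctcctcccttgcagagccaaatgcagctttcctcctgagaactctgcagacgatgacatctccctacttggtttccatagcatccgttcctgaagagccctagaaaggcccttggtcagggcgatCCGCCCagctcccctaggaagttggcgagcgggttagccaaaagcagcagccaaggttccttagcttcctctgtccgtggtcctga
Slc17a7: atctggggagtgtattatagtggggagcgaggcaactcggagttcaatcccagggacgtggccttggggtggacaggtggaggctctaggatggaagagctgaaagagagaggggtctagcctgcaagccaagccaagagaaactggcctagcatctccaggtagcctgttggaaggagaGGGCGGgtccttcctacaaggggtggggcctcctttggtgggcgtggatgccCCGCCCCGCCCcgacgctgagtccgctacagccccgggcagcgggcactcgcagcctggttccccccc
The Slc17a6 window held 1 GC box and the Slc17a7 window held 3, of which a pair overlap. Neither held the glucocorticoid receptor half-site AGAACA or its reverse complement TGTTCT, nor did a further Slc17a6 window at chr7:51624387-51624686. RefSeq windows were matched for 22 of the 34 genes, 32 windows in all. The half-site stood in 2 of these 32 windows, those of Grm8 and Homer1, against 19.0% of all 32851 windows of the table. A GC box stood in 15 of the 32 windows, or 46.9%, against 35.7% of all windows. The windows are short, some genes had several and others none, so these shares do not show whether Cort acts on the genes.

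Total counts per sample ran from 2487063 to 5748223 at 2 days and from 1065776 to 5196364 at 4 weeks, and levels are given as CPM, counts scaled to the library's total. A count of 3 was worth 0.512 to 1.19 CPM in the 2 day libraries, and in the 4 week libraries it was worth 0.619 to 2.75 CPM. ARC identity was checked with 8 marker genes, of which Agrp, Npy, Pomc, Cartpt, Ghrh, Tac2 and Th were detected while Kiss1 stayed at or below 1.64 CPM in every sample. The summed level of 5 markers of the adjacent ventromedial hypothalamus (VMH) lay between 18.4 and 81.1 CPM in the 2 day set, where the ARC list summed to 1286 to 3203 CPM. In the 4 week set it lay between 1.2 and 89.8 CPM, with 337 to 1410 CPM for the ARC list. In bulk tissue, fewer cells of a type and less RNA per cell cannot be told apart, and since nothing states that samples came from separate litters or days, test results measure the spread between these samples.

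Camk2a and the AMPA subunit genes Gria1 and Gria2 were among the most highly expressed of the 34 genes in the ARC. To compare genes, CPM was divided by the length of the joined exons (CPM per kb). In the kept Veh samples at 2 days, Camk2a stood highest at 99.2 ± 8.48 CPM per kb (SD, n = 3), followed by Gria1 at 82.6 ± 5.76, Shank1 at 45.4 ± 5.57, Gria2 at 42.7 ± 1.59 and Slc17a6 at 35.4 ± 5.60. At 4 weeks, Camk2a at 85.1 ± 15.1 CPM per kb, Gria1 at 55.1 ± 10.4, Gria2 at 40.8 ± 3.37 and Shank1 at 27.1 ± 7.40 led the order in the 3 kept Veh samples. Between neighbours in this order the ranges overlapped in 31 of 33 pairs in each set, so that the order of most genes was not resolved. At 2 days only the steps from Camk2a to Gria1 and from Gria1 to Shank1 were free of overlap, and at 4 weeks only those from Camk2a to Gria1 and from Gria2 to Shank1. At the low end stood Slc17a7 with 0.21 ± 0.15, Grm2 with 0.32 ± 0.36 and Slc17a8 with 0.41 ± 0.52 CPM per kb at 2 days. The levels of the sets were not tested against each other, since section thickness, laser system, sequencer and fasting all differed between them.

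**Figure D1:**
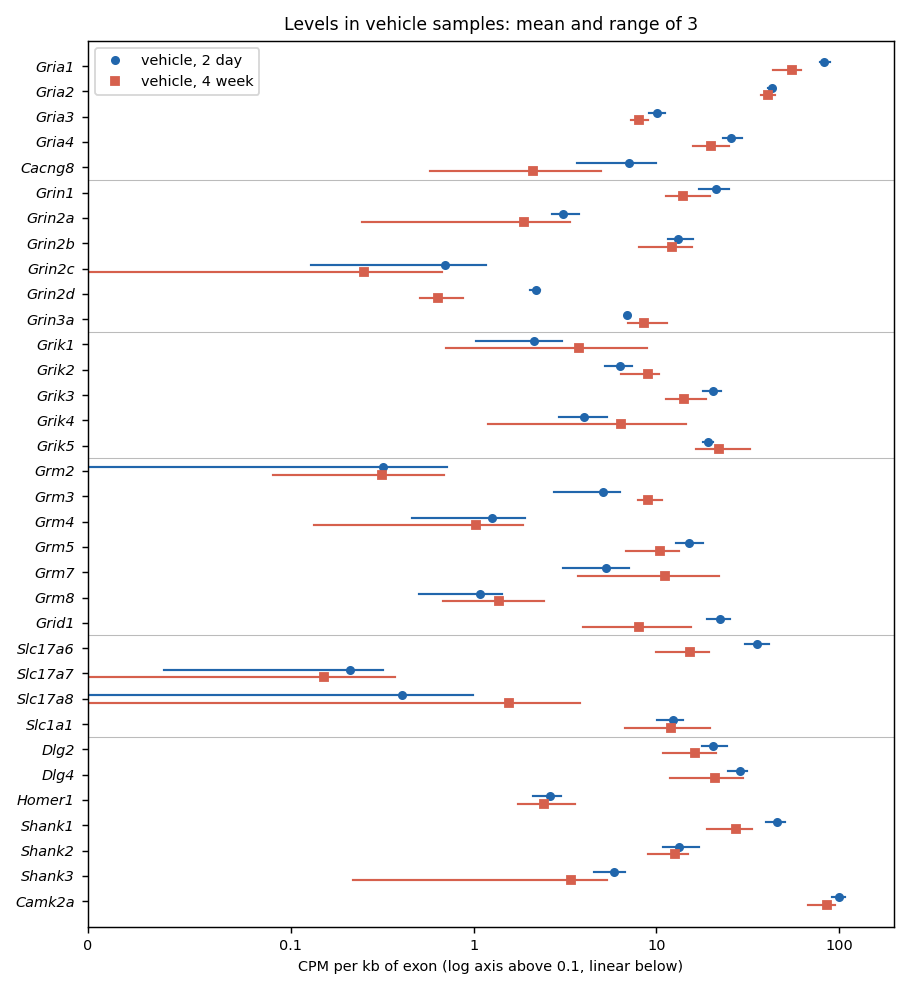
Level of each of the 34 genes in CPM per kb of exon in the 3 kept Veh samples of each set (symbol, mean; line, lowest to highest; log axis above 0.1 and linear below). Camk2a, Gria1 and Gria2 lie at the right in both sets, and Slc17a7, Grm2 and Grin2c at the left.

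Within families, a single subunit often took most of the length-corrected signal. Grin2b, which encodes a glutamate-binding GluN2 subunit, took 68.6% ± 7.1 of the Grin2a to Grin2d signal in Veh samples at 2 days (SD, n = 3) and 80.5% ± 9.7 at 4 weeks (n = 3). Gria1 took 51.3% ± 2.2 of the AMPA subunit signal at 2 days and Gria2, whose edited form makes the channel impermeable to calcium, took 26.5% ± 0.5. Shank1 took 70.4% ± 4.9 of the Shank signal at 2 days, and Slc17a6 took 98.3% ± 0.8 of the vesicular transporter signal. The kainate family was shared, with 39.2% ± 0.7 for Grik3 and 36.9% ± 2.6 for Grik5 at 2 days. Among the 6 metabotropic genes Grm5, a Gq-coupled receptor of the postsynaptic side, led at 2 days with 53.8% ± 3.1 but held 32.5% ± 10.0 at 4 weeks.

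**Figure D2:**
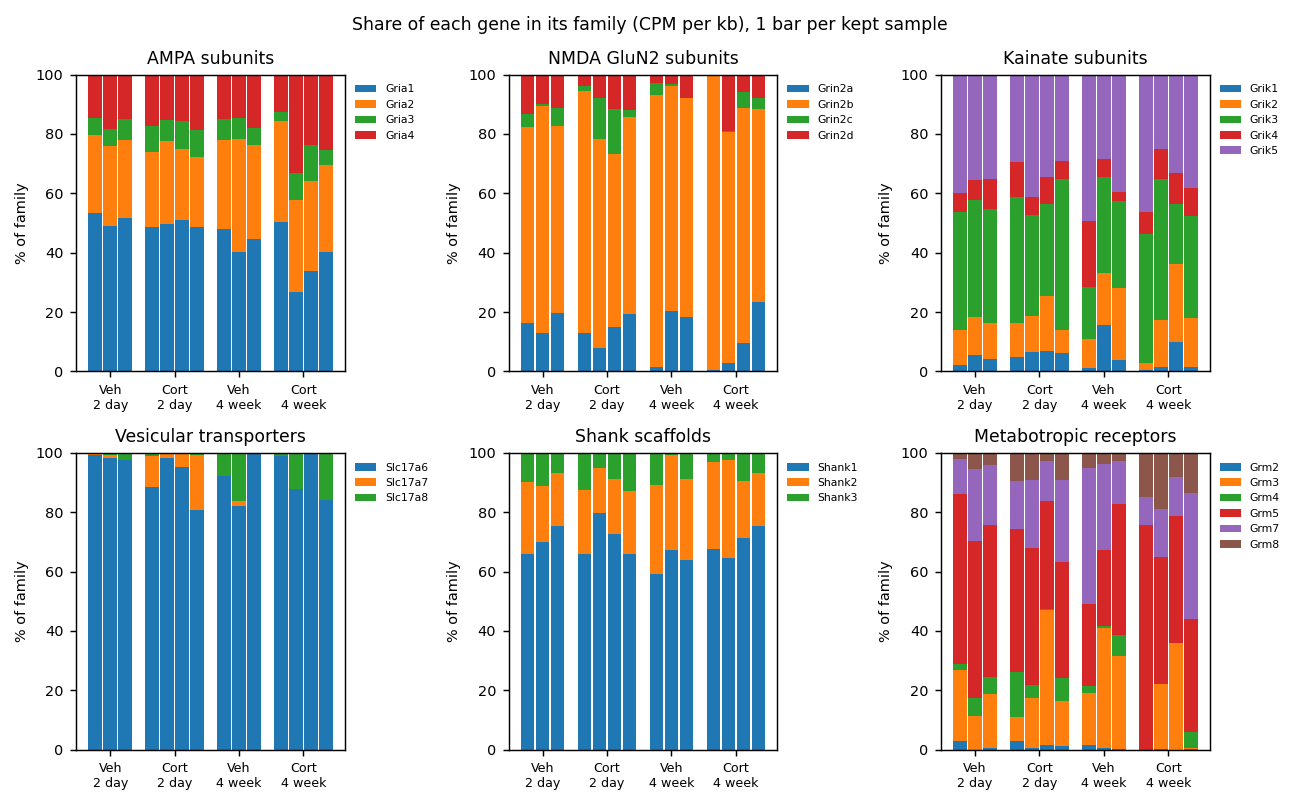
Share of each gene in its family in percent, from CPM per kb, with 1 stacked bar per kept sample (3 Veh and 4 Cort bars per set). Grin2b, Shank1 and Slc17a6 fill most of their families in every group, and the Slc17a7 share is visible mainly in Cort samples at 2 days.

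After 2 days of Cort, 2 transporter genes passed the unadjusted threshold of 0.01 in edgeR's quasi-likelihood test, Slc17a6 with a lower and Slc17a7 with a higher level, and none of the 34 genes passed after correction. The filter on low counts left 33 of them (Slc17a8 did not pass it), and 1.49% of the 12309 genes tested passed the unadjusted threshold. At Padj < 0.1, 0.065% of all genes and none of these 33 were called, with a lowest Padj of 0.446 after Benjamini-Hochberg adjustment over all genes. At an unadjusted threshold of 0.05 the count was 4 (Grin3a and Grm5 in addition), where 5.97% of all genes passed. With DESeq2 1 gene, Slc17a7, passed Padj < 0.1 (Padj = 0.0695), where DESeq2 called 0.439% of the 12297 genes it gave a Padj. With limma voom on all 10 samples none did, but Slc17a7 did not pass the filter there. In the kept samples Slc17a7 passed the filter only through its Cort samples, so its calls in edgeR and DESeq2 are no support for a change. The median log2 fold change (Cort against Veh) was -0.01 over the 33 genes and 0.02 over all genes. With Cort, 15 of the 33 were higher, beside 6415 higher and 5894 lower of all 12309 genes. By role, 4 of 5 AMPA, 5 of 6 NMDA and 5 of 7 scaffold and kinase genes had a lower fitted level with Cort, and 4 of 5 kainate and 5 of 7 metabotropic and delta genes a higher one, with none of these past the unadjusted threshold. Leaving out single kept samples was checked for only part of the 33 genes, and it turned the direction of Gria4, Dlg4, Camk2a, Grik3, Grid1 and Grm7. The stability of the other directions in these counts was not checked in this way.

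**Figure D3:**
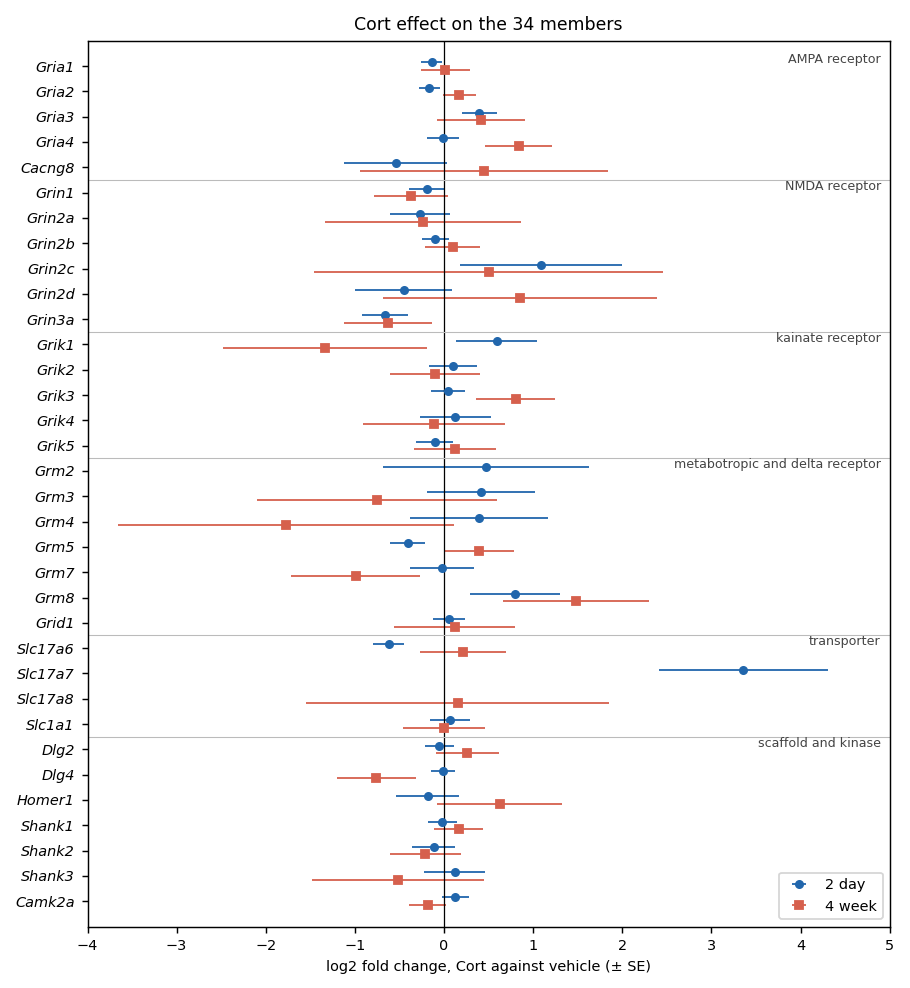
Log2 fold change of Cort against Veh for each gene (x axis; circles, 2 days; squares, 4 weeks; bars, ± SE; kept samples), grouped by role. Slc17a7 at 2 days stands apart at 3.36, Slc17a6 lies at -0.62 with a short error bar, and the 4 week bars are longer than the 2 day bars for most genes.

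Slc17a6 (ENSMUSG00000030500, chr7:51622006-51671119, GRCm38) encodes the transporter that marks glutamatergic neurons of the hypothalamus. At 2 days it measured 185.1, 164.0 and 223.7 CPM in Veh samples C02, C04 and C05 and 116.9, 122.9, 142.7 and 110.2 CPM in Cort samples C01, C03, C06 and C10. Every kept Cort sample was below every kept Veh sample. Group means were 191 ± 30.2 CPM (SD, n = 3) and 123 ± 14.02 CPM (n = 4). The log2 fold change was -0.62 (SE 0.17, Padj = 0.446), and the exact permutation test of the kept samples gave p = 0.0571, the smallest value that 3 against 4 samples allow. The left-out Veh sample C07 lay below every Cort sample at 46.2 CPM, while the left-out Veh sample C09 measured 143.5 CPM and Cort sample C08 79.7 CPM. With all 10 samples the log2 fold change was -0.40 and the exact permutation p was 0.262, and without Veh sample C05 the log2 fold change was -0.49 and no longer passed the unadjusted threshold.

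Marker lists of neurons and glia differed in both directions between the same samples. The summed level of the GABA neuron markers Gad1, Gad2 and Slc32a1 was 1497 to 1698 CPM in the kept Veh samples and 1215 to 1448 CPM in the kept Cort samples, with no overlap, although none of the 3 passed the unadjusted threshold. The left-out Veh samples summed to 971 and 1556 CPM and the left-out Cort sample to 1024 CPM, so that these groups overlapped over all 10 samples. Tcf7l2, a transcription factor strong in thalamus, had a mean of 82.4 CPM in Veh and 46.1 CPM in Cort samples (log2 fold change -0.83, Padj = 0.546), and passed the unadjusted threshold. Of the list of 4 markers of cortex, hippocampus and thalamus to which it belongs, 2 could be tested and Tcf7l2 was the 1 that passed. The 4 markers summed to 165 to 249 CPM in the kept Veh and 134 to 194 CPM in the kept Cort samples, which overlapped. The pan-neuronal sum (7 genes) was 3500 to 3990 CPM in Veh and 3315 to 3943 CPM in Cort samples, and the VMH sum 37.3 to 73.8 CPM in Veh and 23.1 to 81.1 CPM in Cort samples, both overlapping. Higher sums in the kept Cort samples, without overlap, were found for the ARC list at 1834 to 2443 CPM against 1286 to 1724 CPM in Veh (3 of 7 tested genes higher at the unadjusted threshold) and for 6 oligodendrocyte markers at 421 to 611 CPM against 339 to 419 CPM (1 of 6 higher). The left-out Veh samples summed to 2240 and 2493 CPM for the ARC list and to 497 and 684 CPM for the oligodendrocyte list, and the groups overlapped once they were counted. Over all genes tested, 1.49% passed the unadjusted threshold and 6.63% had kept groups that did not overlap. The tanycyte list (1 of 5 tested) and the astrocyte list (1 of 7) also held a gene higher at that threshold, with overlapping sums. The study reports Agrp, a gene of the ARC list, as raised by the shorter Cort treatment. The ARC sum is therefore not a measure of tissue content alone. The part of these marker lists in the Slc17a6 result was not tested.

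Slc17a7 (ENSMUSG00000070570, chr7:45163949-45176142) was near the limit of detection in Veh samples. Its counts at 2 days were 6, 8 and 1 in Veh samples C02, C04 and C05, or 1.49, 1.72 and 0.20 CPM. In Cort samples C01, C03, C06 and C10 they were 81, 6, 36 and 63, or 13.8, 2.02, 6.43 and 25.1 CPM. All 4 Cort samples were above the Veh samples, but C03 by only a small margin, and the Cort level rested on C01, C10 and C06. The log2 fold change was 3.36 (SE 0.95, Padj = 0.446; exact permutation p = 0.0571), on a gene that passed the filter through its Cort samples. Left-out samples measured 0.20 and 1.43 CPM in Veh and 2.05 CPM in Cort, and the groups did not overlap over all 10 samples. The exact permutation test then gave p = 0.0079, the smallest value that 5 against 5 allow, which restates the lack of overlap. Because the gene was tested only through its high Cort samples, neither the overlap nor this p is support for a change. Without Veh sample C05 the gene missed the unadjusted threshold (log2 fold change 2.86). The gene did not pass the filter without C01, without C06, without C10, or in the fit of all 10 samples. Of the cortical markers, Neurod6 had 0 counts in all 20 samples. Tbr1 was at 0 in Cort samples C01 and C06 and measured 4.04 CPM in C03, 2.78 CPM in C10 and 2.66 CPM in the left-out C08, against at most 0.61 CPM in any of the 5 Veh samples. These Cort values rested on 12, 7 and 13 counts. At 4 weeks Tbr1 reached 12.9 CPM in Cort sample C09, where Slc17a7 was at 0. Of the same list, Prox1 overlapped at 2 days, with 86.7 to 150 CPM in kept Veh and 85.9 to 145 CPM in kept Cort samples. Tcf7l2 was lower with Cort, as given above. The part of cortical RNA in the Slc17a7 result was not tested. By share, Slc17a7 made up 0.6% ± 0.5 of the vesicular transporter signal in Veh (n = 3) and 8.7% ± 7.5 in Cort samples (n = 4), so Slc17a6 remained the main form.

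Grin3a, an NMDA subunit that lowers calcium entry through the channel, was measured evenly in the Veh samples. Veh samples C02, C04 and C05 measured 85.8, 85.8 and 83.6 CPM at 2 days, and Cort samples C01, C03, C06 and C10 measured 47.4, 34.7, 72.3 and 58.9 CPM. The left-out samples followed the same split, with 92.5 and 79.3 CPM in Veh and 45.1 CPM in Cort. Mean levels over all samples were 85.4 ± 4.79 CPM in Veh and 51.7 ± 14.4 CPM in Cort (n = 5 each), and an exact permutation test of the 2-sided difference gave p = 0.0079, unadjusted. This is the smallest value that 5 against 5 allow. Groups that do not overlap always give it, so it adds no support to the split. In the kept samples the log2 fold change was -0.66 (SE 0.26, Padj = 0.754) and missed the unadjusted threshold. Over all 10 samples it was -0.71 and passed it (Padj = 0.847).

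The groups were compared by overlap as well. Among the kept samples at 2 days, 5 of 33 genes (Gria1, Gria2, Grin3a, Slc17a6 and Slc17a7) had Veh and Cort values that did not overlap, against 6.63% of all genes tested. Over all 10 samples, 2 of 33 (Grin3a and Slc17a7) did not overlap, against 0.804% of all genes. Slc17a7 was among the 33 only through its kept Cort samples and did not pass the filter with all 10 samples. Its place in these counts is therefore no support for a change. Each of the 5 genes had an exact permutation p of 0.0571 in the kept samples, the smallest value the test allows there. Groups that do not overlap always give this value, so it restates the lack of overlap and adds no support. Gria1 was 538.9, 474.9 and 483.1 CPM in the kept Veh samples and 458.8, 432.4, 443.5 and 467.4 CPM in the kept Cort samples, a log2 fold change of -0.14 (SE 0.12, Padj = 0.933). Gria2 was 678.7, 677.1 and 635.2 CPM against 616.0, 620.0, 529.9 and 587.9 CPM, a log2 fold change of -0.16 (SE 0.11, Padj = 0.920). Left-out samples were 424.0 and 479.4 CPM in Veh and 441.9 CPM in Cort for Gria1, and 379.4 and 604.1 CPM in Veh and 407.1 CPM in Cort for Gria2, and with them both genes overlapped between groups.

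The remaining genes near the top of the 2 day ranking were a metabotropic receptor and an AMPA subunit. Grm5 measured 150.5, 130.2 and 183.6 CPM in Veh samples and 116.2, 114.5, 142.5 and 89.1 CPM in Cort samples (log2 fold change -0.41, SE 0.20, Padj = 0.836, exact permutation p = 0.114), and the groups overlapped. Left-out samples were 97.2 and 176.0 CPM in Veh (C07 and C09) and 118.1 CPM in Cort (C08). Gria3 measured 97.0, 89.7 and 110.0 CPM in Veh and 135.0, 103.4, 137.0 and 141.6 CPM in Cort samples (0.40, SE 0.19, Padj = 0.840, exact permutation p = 0.114), with Cort sample C03 inside the Veh range. The left-out Veh samples stood far lower at 26.7 and 26.8 CPM, and the left-out Cort sample measured 84.0 CPM. Scaffold and kinase genes had fitted log2 fold changes from -0.18 to 0.12 at 2 days. Dlg4 (PSD-95) was 412.5, 325.5 and 396.7 CPM in Veh and 327.2, 400.4, 387.9 and 375.1 CPM in Cort samples (-0.01, SE 0.14). Camk2a was 679.2, 736.8 and 805.6 CPM in Veh and 679.7, 598.1, 898.6 and 1029 CPM in Cort samples (0.12, SE 0.15), and Grin1, whose subunit every NMDA receptor contains, was 207.5, 166.2 and 242.0 CPM against 145.4, 144.5, 184.9 and 237.9 CPM (-0.20, SE 0.19). Left-out Veh samples held 73.3 and 75.3 CPM of Grin1, 1059 and 1155 CPM of Camk2a and 444 and 433 CPM of Dlg4. The left-out Cort sample held 127.6 CPM of Grin1, 848.9 CPM of Camk2a and 388.6 CPM of Dlg4.

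Of the kainate genes, Grik3 measured 160.2, 201.8 and 186.3 CPM in Veh and 194.6, 137.1, 163.2 and 255.4 CPM in Cort samples at 2 days (log2 fold change 0.04, SE 0.19). Grik5 measured 92.6, 105.0 and 98.2 CPM against 78.3, 96.0, 104.8 and 84.7 CPM (-0.11, SE 0.20). The delta receptor gene Grid1 measured 134.8, 112.5 and 150.1 CPM against 157.6, 125.6, 143.6 and 119.3 CPM (0.06, SE 0.18). Grik3, Grik5 and Grid1 overlapped between groups, as did Grin1, Camk2a and Dlg4. Left-out Veh samples measured 173.5 and 154.3 CPM for Grik3, 56.9 and 86.4 CPM for Grik5 and 68.0 and 96.4 CPM for Grid1. The left-out Cort sample measured 163.0, 57.5 and 234 CPM for the same 3 genes, so that Grid1 was highest of all 10 samples there.

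**Figure D4:**
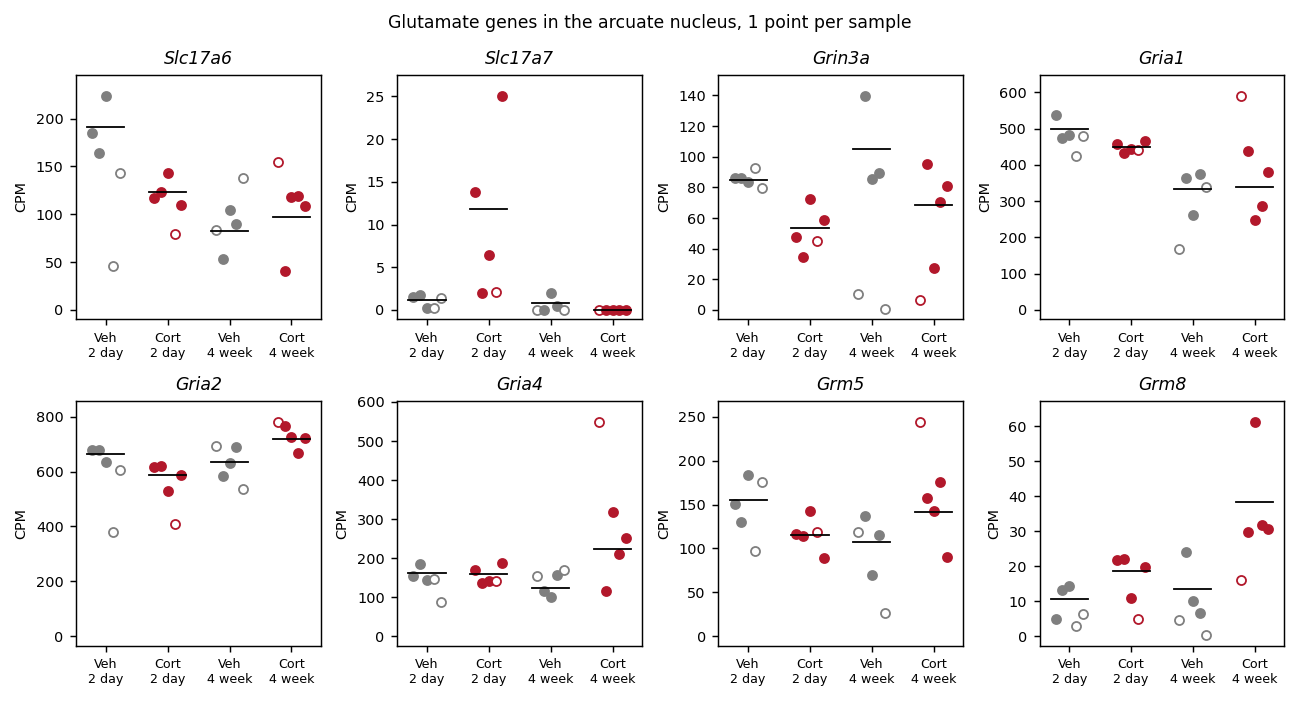
CPM of 8 genes in each sample by group, with 1 point per sample (filled, kept; open, left out by the study) and a line at the mean of the kept samples. Slc17a6 and Grin3a lie lower and Slc17a7 higher in kept Cort samples at 2 days, Slc17a7 is at 0 in all 4 week Cort samples, and open points lie far from the rest for Gria4 and Grin3a at 4 weeks.

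After 4 weeks of Cort, none of the 32 genes tested (Grm2 and Slc17a7 did not pass the filter) reached the unadjusted threshold of 0.01, passed by 1.03% of the 11211 genes tested, or Padj < 0.1, passed by 0.0446%. The count at an unadjusted threshold of 0.05 in edgeR was 1, Gria4, where 4.91% of all genes passed, and neither DESeq2 nor limma voom called any of them at 0.01. The median log2 fold change was 0.11 over the 32 genes and 0.04 over all genes. With Cort, 18 of the 32 were higher, beside 5823 of all 11211 genes. Among the kept samples 1 of 32 genes, Grm8, did not overlap between groups, against 6.53% of all genes. Over all 10 samples none of the 32 was free of overlap, against 0.919% of all genes. Errors were wider than at 2 days: the median SD of log2(CPM + 1) over the 7 kept samples was 0.77 for these genes and 0.94 for all genes at 4 weeks, against 0.37 and 0.46 at 2 days.

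An AMPA subunit ranked first at 4 weeks. Gria4, which forms fast-gating AMPA receptors, measured 117.0, 99.7 and 157.2 CPM in Veh samples C02, C03 and C04 and 115.1, 318.8, 211.8 and 250.8 CPM in Cort samples C07, C08, C09 and C10. C07 lay within the Veh range and the other 3 Cort samples above it. The log2 fold change was 0.84 (SE 0.38, Padj = 0.990, exact permutation p = 0.171), and without C07 it was 1.05 and passed the unadjusted threshold (Padj = 0.752). Left-out samples were 155.1 and 170.6 CPM in Veh and 548.1 CPM in Cort. All 5 AMPA genes had a fitted log2 fold change above 0 (0.01 to 0.84), and their summed level was 1075 to 1299 CPM in the kept Veh samples and 1341 to 1442 CPM in the kept Cort samples. The direction of Gria1 in this group turned under upper quartile scaling (-0.03), and Gria1 itself ran from 260.5 to 374.8 CPM in Veh and from 247.6 to 437.8 CPM in Cort samples, with left-out samples at 167.1 and 340.4 CPM in Veh and 590.3 CPM in Cort. Pan-neuronal markers stood higher in the same Cort samples, at 2993 to 3520 CPM against 2702 to 2964 CPM in Veh (left-out Veh samples 2607 and 3554 CPM), and their part in the AMPA level was not tested.

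Grm8, a presynaptic Gi-coupled receptor, measured 24.0, 10.1 and 6.72 CPM in Veh samples and 29.7, 61.2, 32.0 and 30.7 CPM in Cort samples at 4 weeks (log2 fold change 1.48, SE 0.82, Padj = 0.990, exact permutation p = 0.0571). The left-out Cort sample C06, at 16.1 CPM, fell inside the Veh range, and the left-out Veh samples were 4.59 and 0.42 CPM. Grik3 measured 101.8, 167.3 and 111.9 CPM in Veh and 344.3, 261.4, 69.1 and 218.9 CPM in Cort samples (0.80, SE 0.44, exact permutation p = 0.229), with C09 lowest of all, and without C09 the log2 fold change was 1.10 and passed the unadjusted threshold (Padj = 0.980). Dlg4 had a lower mean with Cort, from 284.7, 391.6 and 156.3 CPM to 61.9, 148.6, 293.8 and 158.0 CPM (-0.76, SE 0.44, exact permutation p = 0.343), with overlapping groups. Grm7, a presynaptic receptor of low glutamate affinity, measured 129.2, 44.6 and 21.9 CPM in Veh and 11.3, 31.4, 31.4 and 58.1 CPM in Cort samples (-0.99, SE 0.72, exact permutation p = 0.457), and the high Veh mean came from C02, without which the log2 fold change was 0.00102. Left-out Veh samples (C01 and C05) measured 157.0 and 229.8 CPM for Grik3, 370.8 and 112.4 CPM for Dlg4 and 51.4 and 19.3 CPM for Grm7. The left-out Cort sample C06 measured 150.2 CPM for Grik3, 505.6 CPM for Dlg4, the highest of the set, and 23.0 CPM for Grm7. With all kept samples none of these differences passed a threshold.

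Neither of the transporter genes singled out at 2 days passed a threshold at 4 weeks, and Slc17a7 was too low to be tested. Slc17a6 measured 53.8, 104.5 and 90.0 CPM in Veh and 41.1, 118.1, 119.6 and 108.8 CPM in Cort samples (log2 fold change 0.21, SE 0.48, Padj = 0.992), with left-out samples at 83.5 and 137.9 CPM in Veh and 154.9 CPM in Cort. Slc17a7 had 0 counts in all 5 Cort samples, which allows up to 1.55 CPM in the shallowest of them, and at most 2.01 CPM in any Veh sample, so no fold change is given. Grin3a measured 139.7, 85.6 and 89.6 CPM in Veh and 95.1, 27.4, 70.6 and 80.8 CPM in Cort samples, and its log2 fold change of -0.63 (SE 0.49, Padj = 0.990) had a wider error than the -0.66 of 2 days. With all 10 samples it was -0.24, and with limma voom on all 10 samples -0.00936. Left-out samples held almost no Grin3a, at 10.1 and 0.42 CPM in Veh samples C01 and C05 and 6.61 CPM in Cort sample C06. Slc17a8 (VGLUT3) was patchy, at 18.1 CPM in Veh sample C03, 14.5 and 18.1 CPM in Cort samples C08 and C10, and 4.06 CPM or less in the other 7 samples of the set.

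Whether the response differed between treatment lengths was tested as the difference of the log2 fold changes (4 weeks minus 2 days) over the 14 kept samples, which uses the same samples as the comparisons above. One of the 34 genes, Slc17a7, passed the unadjusted threshold of 0.01 (Padj = 0.714), against 1.35% of 12777 genes, and none passed Padj < 0.1, against 0.0157%. Slc17a7 entered this test through the 2 day Cort samples in which it was high and was at 0 in every 4 week Cort sample, so neither the call nor its size is read as a difference between treatment lengths. At an unadjusted threshold of 0.05 the count was 2, where 6.49% of all genes passed, and with DESeq2 none passed Padj < 0.1. For Slc17a6 the difference was 0.84 (SE 0.47, Padj = 0.842), so the changes at 2 days and at 4 weeks were not shown to differ, although without 4 week Cort sample C07 the difference was 1.10 and passed the unadjusted threshold (Padj = 0.524). Gria4 had a difference of 0.85 (SE 0.41, Padj = 0.769). Treatment length cannot be told apart from section thickness, laser system, sequencer and the fast.

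Genes of the same pathway outside the 34 were also followed, from a list of 54. Of 51 that passed the filter at 2 days, 1 was higher at the unadjusted threshold and none lower, beside the 1.49% of all genes. Glul, the glutamine synthetase by which astrocytes clear glutamate, measured 1020 to 1195 CPM in the kept Veh samples and 1516 to 1720 CPM in the kept Cort samples, with no overlap (log2 fold change 0.54, SE 0.10, Padj = 0.042). Left-out samples were 1304 and 1569 CPM in Veh and 2416 CPM in Cort, so the groups overlapped over all 10. At 4 weeks, 47 were tested and 1 was higher at the unadjusted threshold with none lower, beside the 1.03% of all genes. This was Slc1a2 (GLT-1), the main glutamate uptake carrier of astrocytes, at 1946 to 2080 CPM in the kept Veh samples and 2215 to 3341 CPM in the kept Cort samples (0.46, SE 0.15, Padj = 0.926). Left-out Veh samples measured 1125 and 3258 CPM, on either side of the kept Veh range. Slc1a2 missed the unadjusted threshold with DESeq2, with all 10 samples, with upper quartile scaling, and without any 1 of Veh samples C02, C03 and C04 or Cort samples C07 and C09. Astrocyte markers as a list (7 genes, Slc1a2 among them) summed to 5492 to 5993 CPM in Veh and 5046 to 6970 CPM in Cort at 2 days, and to 3434 to 3502 CPM in Veh and 3890 to 5353 CPM in Cort at 4 weeks (left-out Veh samples 2509 and 4773 CPM), and their part in the Glul and Slc1a2 results was not tested. AMPA auxiliary subunits and partners (16 tested at 2 days, 15 at 4 weeks), other receptors (2 and 2) and scaffolds and signalling genes (22 and 20) had no member past the unadjusted threshold in either set.

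Exons of some genes are shared with neighbours, which limits how far their counts can be assigned. Slc1a1 shared 31.9% of its exon bases with the gene 4430402I18Rik on the opposite strand, Grin1 13.5% with Grin1os, Grin2d 9.66% with Gm45441 and Grm2 9.60% with Gm28111, all antisense. The other 30 genes shared at most 3.88%, and Slc17a6, Slc17a7 and Grin3a shared none.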

How the data were processed

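Per the labels and the methods of the study, reads were mapped with Rsubread to GRCm38 and counted per gene with featureCounts by the authors, with CASAVA 1.7, featureCounts and DESeq2 named in the submitters' processing notes, and the raw counts were deposited as 1 table per set. Strand and multi-mapping settings are not given in the sources used here. The deposited normalised tables were used only for their gene symbols, and their values were not used. Column names carry no replicate number, so columns were mapped to groups only.

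Counts were fitted over the whole table with edgeR 4.0.16 (R 4.3.3, TMM, filterByExpr, quasi-likelihood test, 2-sided) on the 7 samples the study kept per set, and P values were adjusted by Benjamini-Hochberg over all genes tested, with thresholds of 0.01 unadjusted and Padj < 0.1 for counts of calls. Because groups hold 3 to 5 samples, p values of single genes are given only as Padj or from exact permutation tests, unadjusted. A single model over 14 samples gave the difference between sets. CPM was computed with TMM over the 10 samples of a set and is reported without a pseudocount. Exact permutation tests of group means used scipy 1.17.1. Exon lengths and overlaps came from GENCODE vM21 (GRCm38). Each fit was tested on simulated counts in which 200 genes were changed 3-fold. Padj < 0.1 recovered 64% of these at 2 days, 14.5% at 4 weeks and 2.5% for the difference between sets. Of the 8 calls for that difference, 37.5% were wrong. The fits at 4 weeks and between sets missed most changes of this size, so their lack of calls shows little. The precision of a value is limited by depth, and floors of 3 counts cover counting error only.

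Alternatives were all 10 samples, DESeq2 1.42.0, limma 3.58.1 voom with quality weights, upper quartile scaling, DESeq2 size factors, no filter, at least 10 counts in every sample, leaving out each sample in turn, and transcript length in place of exon length. Genes described sample by sample were those past the unadjusted threshold, the 5 with the smallest P per set, the highest level per kb in each role, and Slc17a6 and Slc17a7. Gria1 and Gria2 at 2 days, Slc17a8 and the genes of the marker lists were named after their values were seen, where a count called for it. The 34 genes and all lists were chosen with earlier results of these data known. One marker gene of the cortex, hippocampus and thalamus list is not reported here and was left out of that list's counts and sums.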

Additional observations from a re-analysis of the deposited data

Results flagged for a closer look

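Values of 15 named genes were searched for samples far from the rest of their group of 5 (log2 CPM, gap to the nearest sample as a share of the group's range), in the 55 groups where every sample had more than 3 counts. There were 2 such groups, and chance alone flags about 1 in 20. Slc17a6 in Veh sample C07 at 2 days was 46.2 CPM, with a gap share of 0.719; the study had left this sample out. Slc17a6 in Cort sample C07 at 4 weeks was 41.1 CPM, with a gap share of 0.734; this sample was kept.

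The fitted difference between sets for Slc17a7 was -8.10 on the log2 scale (past the unadjusted threshold of 0.01, Padj = 0.714). It is no measure of size, because the gene was at 0 in all 4 week Cort samples, did not pass the 4 week filter and entered the test through the 2 day Cort samples.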

How the results depend on the processing

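No paired analysis was possible because the columns carry no replicate numbers. The count of 2 genes past the unadjusted threshold of 0.01 at 2 days became 1 with all 10 samples, with limma voom and with at least 10 counts in every sample, and 0 to 2 when a kept sample was left out. With all 10 samples and with limma voom, the gene was Grin3a and not Slc17a6. In both of these settings and under the count minimum, Slc17a7 was not tested. The count of 0 at Padj < 0.1 became 1 with DESeq2, and stayed 0 when a kept sample was left out. At 4 weeks the counts of 0 ranged from 0 to 1 at 0.01 (Gria4 without C07, Grik3 without C09) and stayed 0 at Padj < 0.1. For the difference between sets, the count of 1 became 0 with all samples, with limma voom and with the count minimum, settings in which Slc17a7 was not tested. The count ran from 0 to 3 when a kept sample was left out, the 3 being Gria4, Slc17a6 and Slc17a7 without 4 week C07. Other pathway genes past it at 2 days were 2 with DESeq2 and with all samples in place of 1, and 1 to 3 when a sample was left out. At 4 weeks the 1 became 0 with DESeq2, all samples and upper quartile scaling, and 0 to 2 when a sample was left out. The cause of these changes was not tested.

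Of 436 fold changes recomputed for 31 results, 389 kept direction and side of the threshold, 35 turned direction, 6 lost and 6 gained the threshold. At 2 days with all samples they were Gria4 (0.12), Grin1 (0.14), Grm7 (0.0440) and Camk2a (-0.12), and with limma voom Gria4 (0.0301), Grm7 (0.00317) and Camk2a (-0.00992). At 4 weeks they were Gria1 with upper quartile scaling (-0.0346), Grik5 with limma voom (-0.0681) and Grid1 with all samples (-1.25), where Veh sample C05 held 407 CPM.
Among the named genes, leaving out 1 kept sample at 2 days gave ranges on both sides of 0 for Camk2a (-0.0214 to 0.24), Dlg4 (-0.11 to 0.0534), Gria4 (-0.10 to 0.0968), Grid1 (-0.0506 to 0.16), Grik3 (-0.14 to 0.17), Grm7 (-0.30 to 0.23). Leaving out 1 kept sample at 4 weeks gave ranges on both sides of 0 for Gria1 (-0.13 to 0.13), Grid1 (-0.32 to 1.05), Grik5 (-0.25 to 0.54), Grm7 (-1.42 to 0.00102), Slc17a6 (-0.000275 to 0.47).
Over all genes, DESeq2 called 288 at 0.01 at 2 days in place of 183 and 254 at 4 weeks in place of 116, and 54 and 43 at Padj < 0.1 in place of 8 and 5. By longest transcript, the Gria1 share at 2 days was 44.4% and the Grik3 share 33.1%, below their shares by exon length. Grik5 then led the kainate family in Veh samples at 2 days with 39.7%. At 4 weeks Gria2 then led the AMPA subunits in Veh samples with 38.6%, against 37.5% for Gria1. The order of levels per kb was not repeated with transcript length. Depth limits Slc17a7, Slc17a8, Grm2 and Grin2c, which had 3 counts or fewer in 2 to 7 samples at 2 days and 5 to 9 at 4 weeks.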
